A study of Mus musculus with 2 samples.

Results

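Rab5a, Tm9sf1 and Atg3 encode proteins of the endosomal and autophagic membrane system. They were taken from the gene probes of a two-colour array by transcript accession, and they are 3 of the 50 genes probed among 14450 RNA probes in all. Each had 1 probe, printed in 10 spots on every array. Of 99 endosome and autophagy genes listed for comparison, these 3 were the only ones with a named probe, so no wider account of the pathway can be given. BV-2 cells, an immortalised mouse microglial line, were compared in 2 states with 1 array each. The control array held RNA of cells in normal culture (5% CO2, 37 °C). The OGD/R array held RNA of cells deprived of oxygen and glucose for 2 h under 5% CO2 and 95% N2 at 37 °C and then returned to oxygen and regular medium, which models ischemia and reperfusion in culture. How long the cells were reoxygenated is not stated in the labels.

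Modified RNA eluted from the immunoprecipitation beads (IP) carried Cy5, and unmodified RNA recovered from the supernatant (Sup) carried Cy3, so both fractions of a state shared an array. The labels do not state which modification was precipitated. The dyes were not swapped, so every IP share and every level of the IP/Sup ratio is open to dye bias. The states have 1 array each, so their differences were not replicated and are given as sizes without a test. SDs are over repeat spots of a probe within an array and cover technical error only. The spot SD of a difference combines those of both arrays, as the square root of their summed squares. A difference of 2-fold is used as a mark of size.

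Early endosomes receive membrane and cargo taken up from the cell surface, and Rab GTPases set the identity of each endosomal compartment. Rab5a is the GTPase of early endosomes, where its GTP-bound form recruits tethering factors and a phosphoinositide 3-kinase. Tm9sf1 belongs to the TM9 superfamily of multi-pass membrane proteins of endosomes and the Golgi. Atg3 is the E2-like enzyme that joins LC3-family proteins to phosphatidylethanolamine on the growing autophagosome. In microglia these routes handle engulfed debris.

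The genes lie on 3 chromosomes of the GRCm38.p6 assembly. Rab5a (accession NM_025887, probe A_51_P117604) is at chr17:53479234-53507678. Tm9sf1 (NM_028780, probe A_51_P455410) is at chr14:55635965-55643806, and Atg3 (NM_026402, probe A_51_P143855) is at chr16:45158829-45188538. RefSeq lists 1 transcript for Rab5a, 11 for Tm9sf1 and 2 for Atg3, and which of these a probe can bind was not tested.

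The 250 bases before the outermost annotated start of each gene are shown for the palindrome CACGTG, marked in capitals, which is the core of the site bound by TFEB and TFE3, regulators of lysosome and autophagy genes. The sequences are from RefSeq (GRCm38.p6), 5′ to 3′ on the strand of the gene.
Rab5a, plus strand, chr17:53478984-53479233: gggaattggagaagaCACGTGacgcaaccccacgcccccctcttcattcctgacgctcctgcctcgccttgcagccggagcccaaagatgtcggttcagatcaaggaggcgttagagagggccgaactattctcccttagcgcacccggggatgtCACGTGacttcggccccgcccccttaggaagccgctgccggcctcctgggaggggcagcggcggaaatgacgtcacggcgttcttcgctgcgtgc
Atg3, plus strand, chr16:45158579-45158828: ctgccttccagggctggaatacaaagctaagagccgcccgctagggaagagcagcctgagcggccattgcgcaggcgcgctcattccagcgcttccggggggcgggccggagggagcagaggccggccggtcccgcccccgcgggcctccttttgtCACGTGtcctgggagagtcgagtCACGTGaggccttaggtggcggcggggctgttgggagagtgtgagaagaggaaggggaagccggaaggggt
Tm9sf1, minus strand, chr14:55643807-55644056: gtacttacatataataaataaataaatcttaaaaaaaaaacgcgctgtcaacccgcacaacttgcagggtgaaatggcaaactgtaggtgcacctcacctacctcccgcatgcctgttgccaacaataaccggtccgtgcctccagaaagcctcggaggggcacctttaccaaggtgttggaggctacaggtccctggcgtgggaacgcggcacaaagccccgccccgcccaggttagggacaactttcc
Rab5a held 2 copies of CACGTG, whose first bases lie 235 and 95 bases before the start. Atg3 also held 2 copies, at 94 and 71 bases. Tm9sf1 held 0, as did the window before a second annotated start inside the gene. Both strands were searched, and CACGTG reads the same on both. Of 32851 such windows in the mouse table, 6.02% held at least 1 CACGTG and 0.429% held at least 2. These are matches of letters only. The arrays measured RNA in 2 fractions and hold no measure of promoter use.

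The Rab5a signal lay almost wholly in the IP channel in both states, and its IP/Sup ratio was lower in OGD/R by a log2 difference of -0.92 (spot SD 0.17), or 1.89-fold. Both channels contributed, with more Rab5a in the supernatant and less in the precipitate after OGD/R. Tm9sf1 differed the other way. Its ratio was higher by 1.32 (spot SD 0.08), or 2.49-fold, with a lower supernatant signal and nearly the same precipitate signal. Atg3 was measurable only in the precipitate, where its spots in the 2 states overlapped.

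**Figure D1:**
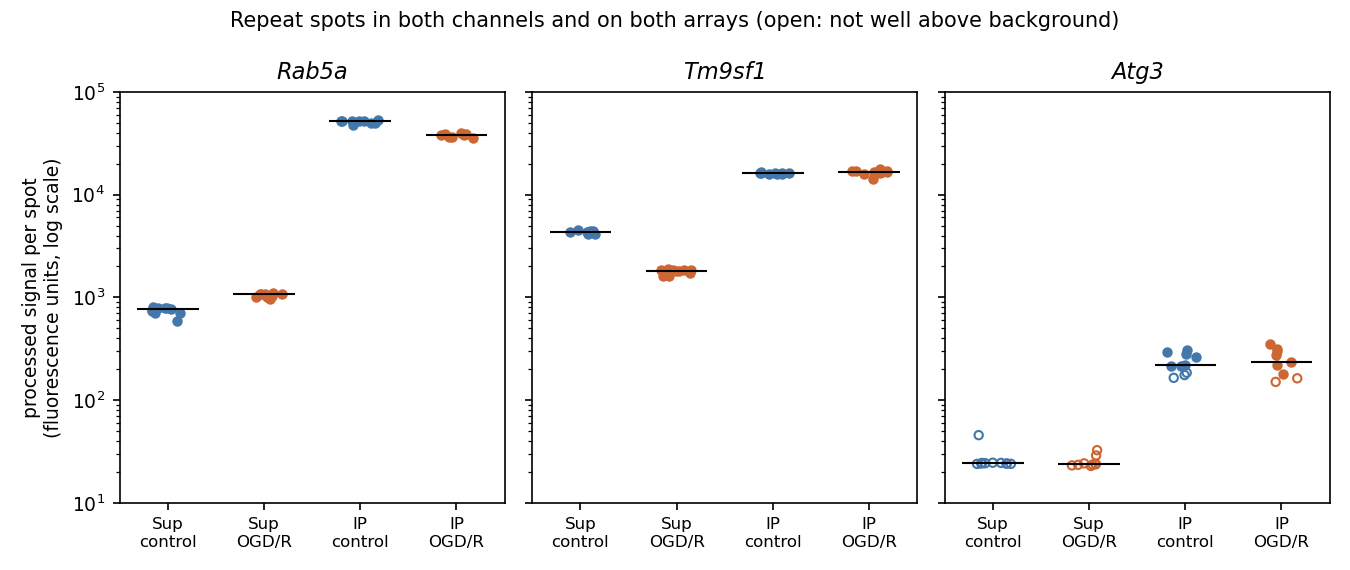
Processed signal of every retained spot (fluorescence units, log scale) for Rab5a, Tm9sf1 and Atg3 in the Sup and IP channels of both arrays. Lines mark medians and open circles mark spots not well above background. The Rab5a and Tm9sf1 Sup spots of the arrays are apart in opposite directions, and every Atg3 Sup spot is open.

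The Rab5a probe was well above background in every spot and channel. In control its Sup signal over 10 spots ran from 593 to 799 fluorescence units with a median of 764, and in OGD/R its 9 retained spots ran from 970 to 1102 with a median of 1073. The supernatant spots of the arrays did not overlap, and those of OGD/R were higher. The IP signal ran from 48234 to 53638 in control (median 52112) and from 35595 to 39807 in OGD/R (median 38537). These spots also did not overlap, and those of OGD/R were lower. After scaling between arrays the Sup signal was higher in OGD/R by 0.57 on the log2 scale (spot SD 0.15, 1.48-fold), and the IP signal was lower, at -0.30 (spot SD 0.07, 1.23-fold). The summed signal of both channels, a stand-in for abundance that depends on labelling, differed by -0.33 (spot SD 0.07). Scaled on the spike-in probes it was 0.10, but that scale shifts all RNAs alike and moved the median total difference from 0.003 to 0.44. Rab5a thus lay below the median RNA on either scale. The spike-in probes themselves scattered, with total differences from -2.33 to 0.39 and a median of -0.23. Their scale rests on their median total on each array, 0.70 in control and 0.27 in OGD/R before rescaling. The sign of the Rab5a total on that scale therefore depends on the summary chosen. Totals at least 2-fold higher in OGD/R were found in 7.32% of the 41 gene probes measured in at least 1 channel and 2-fold lower ones in 4.88%, with none of the 3 genes among them.

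The IP share of the Rab5a signal was 98.6% ± 0.13 (SD over 10 spots) in control and 97.3% ± 0.17 (SD over 9 spots) in OGD/R. The lowest control spot was at 98.5% and the highest OGD/R spot at 97.5%. Put as IP over Sup before centring, the mean was 69.8 in control and 36.3 in OGD/R. A small move in share near its upper end thus stands for a large move in ratio. Spots occupy the same positions on both arrays, and the ratio was lower in OGD/R at 9 of 9 positions usable on both, with log2 differences from -0.71 to -1.15. The scanner software's own error of a single spot's log2 ratio had a median of 0.61 in control and 0.53 in OGD/R, larger than the scatter between spots.

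The Sup signal of Rab5a was dim before correction. Its uncorrected median brightness had a median of 54 units in control and 69 in OGD/R, over local backgrounds of 11.5 and 12, against 1301 and 1036 in IP. The scanner's linear dye step multiplied Sup by 23.6 and 23.4 and IP by 37.9 and 35.5 on the control and OGD/R arrays. In the background-subtracted signals without dye normalization the IP share of Rab5a was 97.5% in control and 95.5% in OGD/R, and with normexp it was 93.9% and 91.2%. Normexp left a Rab5a Sup difference of 0.23, and of 0.28 when loess followed.

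**Figure D2:**
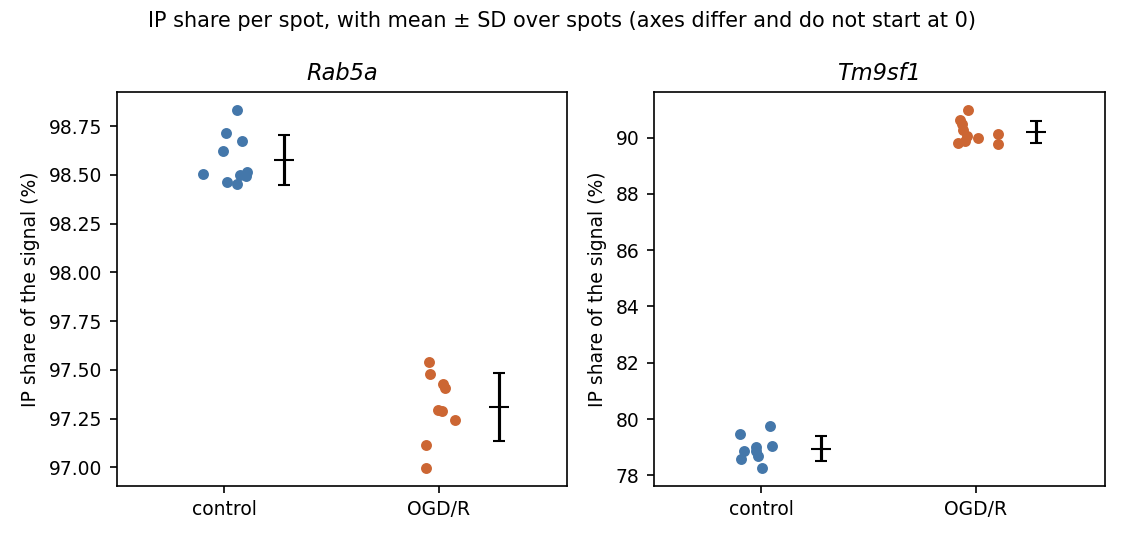
IP share of the signal in percent for every retained spot of Rab5a and Tm9sf1, with mean ± SD over spots beside the points. The Rab5a axis spans about 2 percentage points, where OGD/R spots lie below control spots, and the Tm9sf1 spots lie near 79.0% in control and 90.2% in OGD/R.

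Tm9sf1 was well above background in every spot and channel. In control its Sup signal ran from 4105 to 4482 over 9 retained spots (median 4341), and in OGD/R from 1603 to 1906 over 10 spots (median 1819). The OGD/R spots lay far below those of control, without overlap. The IP signal ran from 15924 to 16622 in control (median 16185) and from 14279 to 17705 in OGD/R (median 16642). The IP spots of the arrays overlapped, and the OGD/R spots were spread over a range that enclosed those of control. Scaled between arrays, Sup was lower in OGD/R by a log2 difference of -1.21 (spot SD 0.10, 2.31-fold), and IP differed by 0.16 (spot SD 0.09). After this scaling the IP signal was higher in OGD/R at 9 of 9 usable positions, by 0.11 to 0.28. Before scaling some of these positions were lower in OGD/R, as with 15776 units against 16185 in control. The IP difference was 0.02 without scaling between arrays and 0.05 with normexp and loess. The summed signal differed by -0.09 (spot SD 0.08), or by 0.35 when scaled on the spike-in probes, where the median RNA was at 0.44. With normexp the Sup difference was -0.84, with normexp and loess -0.79 and on the spike-in scale -0.77, all short of 2-fold.

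The IP share of the Tm9sf1 signal was 79.0% ± 0.45 (SD over 9 spots) in control and 90.2% ± 0.40 (SD over 10 spots) in OGD/R. The highest control spot was at 79.8% and the lowest OGD/R spot at 89.8%. The mean IP over Sup before centring was 3.75 in control and 9.21 in OGD/R. At 9 of 9 usable positions the ratio was at least 2-fold higher in OGD/R, by 1.18 to 1.46 on the log2 scale. The scanner's error of a single spot's log2 ratio had a median of 0.27 in control and 0.36 in OGD/R. Without dye normalization the share was 68.4% in control and 84.7% in OGD/R, and with normexp it was 65.4% and 78.4%, so the level of the share depends on the processing while its order between the states was the same in these settings.

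Atg3 was dim. In Sup 0 of 10 retained spots in control and 0 of 9 in OGD/R were well above background, with medians of 24.2 and 23.6 units, below the medians of the negative control spots at 28.8 and 27.5. No Sup difference, ratio difference or IP share is therefore given for Atg3. In IP 7 of 10 retained spots in control and 7 of 9 in OGD/R were well above background. The IP signal ran from 165 to 308 in control (median 218) and from 150 to 351 in OGD/R (median 237), and the range of OGD/R enclosed that of control. The scaled log2 IP difference was 0.18 with a spot SD of 0.55, which is smaller than the spot scatter. It was higher at 6 of 9 usable positions and lower at 3. Within each array the IP signal exceeded Sup at least 2.01-fold in control and at least 2.19-fold in OGD/R, with the Atg3 IP mean set against the lowest processed Sup signal well above background. After loess and A-quantile normalization the same bounds were 3.05-fold and 3.47-fold. Both pairs are open to dye bias because dyes were not swapped, and they also depend on the scale of each channel. The lowest processed signal well above background was 181 units for IP against 113 for Sup on the control array. On the OGD/R array it was 165 against 107. Uncorrected Atg3 brightness differed little between channels, with control medians of 20.75 units (IP) against 20 (Sup). The OGD/R medians were 23 against 21. Background subtraction left medians of 5.91 units (IP) against 0.02 (Sup) for control, and 6.71 against 0.003 for OGD/R.

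The gene probes give the background for these values. The 34 that could be measured throughout, in both channels and both states, had a median ratio difference of 0.65, and the ratio was higher in OGD/R for 29 and lower for 5. A ratio at least 2-fold higher was found in 26.5% of the 34 and one at least 2-fold lower in 5.88%. Tm9sf1, ranked 6 from the highest, is thus among 9 genes past 2-fold, while Rab5a, ranked 32 of 34, fell short of 2-fold in the less common direction. Repeat spots of the arrays were apart in 82.4% of the 34, so the lack of overlap seen for both genes was common. They were apart and lower in OGD/R in 8.82%, which is 3 genes with Rab5a among them, and apart and higher in 73.5%. In Sup 38.2% of 34 gene probes were at least 2-fold lower in OGD/R as reported, Tm9sf1 among them, and 2.94% at least 2-fold higher. In IP 9.76% of 41 were at least 2-fold higher and 4.88% lower, with none of the 3 genes among them. The spike-in probes, 36 of which could be measured, had a median ratio difference of 0.20, and 25 of them were higher in OGD/R. Their ratio differences ran from -0.59 to 2.10. Spike-in centring used the median of their ratios on each array, 1.24 in control and 1.69 in OGD/R as centred here. These array medians lie further apart than 0.20, so the result of spike-in centring depends on the summary chosen.

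Set among 4875 small-RNA probes measured in both channels, the Tm9sf1 ratio difference was exceeded by 9 and that of Rab5a undercut by 65. The median ratio difference of these probes was 0.05, against 0.65 for the 34 gene probes, so the counts also carry a difference between probe classes. The share of these probes past 2-fold was 1.17% for a higher ratio and 0.882% for a lower one.

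**Figure D3:**
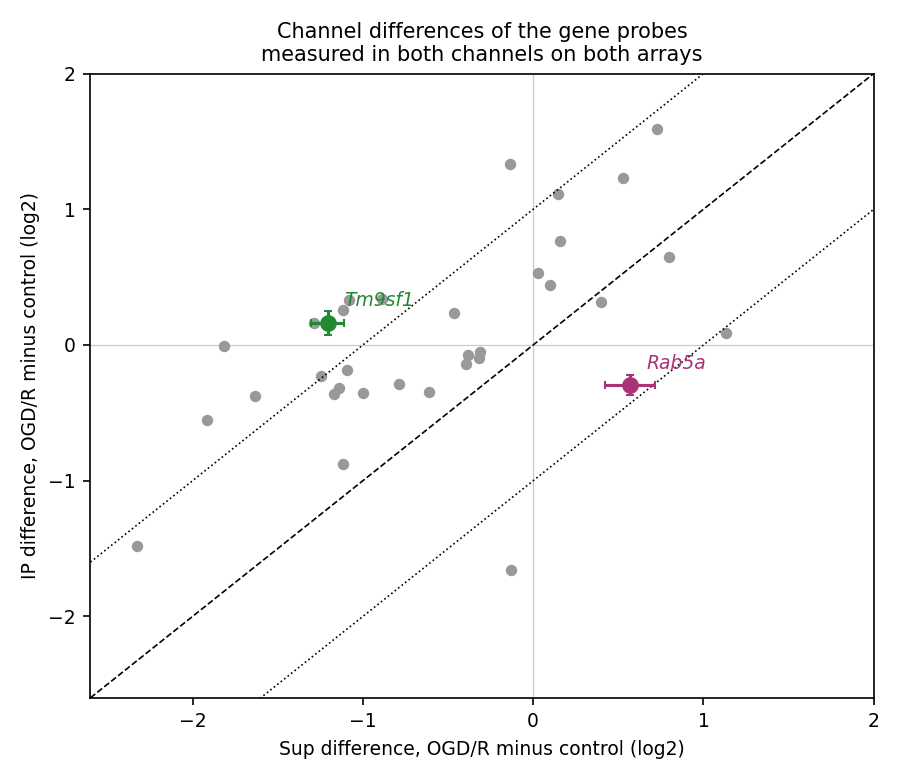
OGD/R minus control differences of the scaled Sup signal (horizontal, log2) and IP signal (vertical, log2) for the 34 gene probes measured in both channels, with spot SDs for Rab5a and Tm9sf1. The dashed line marks equal differences and the dotted lines a 2-fold gap between them. Tm9sf1 lies left at -1.21 and 0.16 amid other genes, and Rab5a lies lower right at 0.57 and -0.30.

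Among the 34 gene probes measured in both channels in both states, a set that leaves out probes with Sup near background, Rab5a had the highest IP/Sup ratio on both arrays, with a centred log2 ratio of 6.40 ± 0.14 (SD over 10 spots) in control and 5.48 ± 0.10 (SD over 9 spots) in OGD/R. Another 7 gene probes had IP but not Sup measured throughout. Of these Trp53rka had a lower ratio than Rab5a in control, at 5.15. In OGD/R 0 of its 10 Sup spots were well above background, and its IP signal exceeded Sup at least 55.9-fold, above the 36.2-fold of Rab5a. Within the 34 the next IP shares were 96.3% for Cep41, a centrosomal protein gene, in control and 96.3% for Dnajc11, which encodes a mitochondrial DnaJ protein, in OGD/R. The Rab5a spots do not overlap with those means, which leave out the spot scatter of the other probes. For Cep41 80% of the control Sup spots were well above background, and its ratio difference had a spot SD of 0.36. A ratio set against that of another probe also carries differences in labelling. Of the 4875 small-RNA probes 0 had a higher ratio than Rab5a in control and 1 in OGD/R. As a class these probes had lower ratios, with median centred log2 values of 0.24 in control and 0.28 in OGD/R. The medians of the 34 gene probes were 2.29 and 3.12, and the Tm9sf1 ratio also exceeded 93.9% and 98.5% of the small-RNA probes. With normexp background correction, with or without loess, Rab5a ranked 1 in control and 2 in OGD/R. Tm9sf1 lay mid-range, ranked 18 in control and 13 in OGD/R, with centred log2 ratios of 2.19 ± 0.04 (SD over 9 spots) and 3.50 ± 0.07 (SD over 10 spots). The median share of the 34 gene probes was 80.0% in control and 87.5% in OGD/R.

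**Figure D4:**
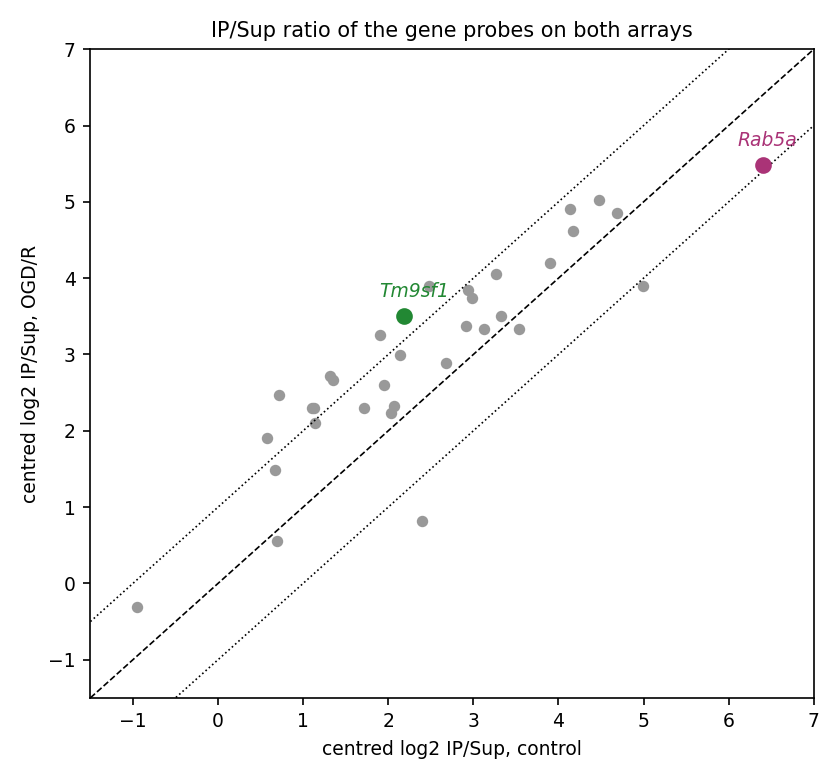
Centred log2 IP/Sup in control (horizontal) and OGD/R (vertical) for the 34 gene probes measured in both channels, with equality dashed and 2-fold differences dotted. Rab5a is the point at the far right, at 6.40 and 5.48, and Tm9sf1 lies above the upper dotted line at 2.19 and 3.50.

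Likeness between genes was measured as the Euclidean distance over the Sup and IP differences, which rests on 2 values per gene from 1 pair of arrays. Closest to Tm9sf1 among 32 named gene probes were Gsdmd, the gene of the gasdermin pore of pyroptosis, at a distance of 0.08, Gpi1, a glycolytic enzyme gene, at 0.13, and the predicted gene Gm9789 at 0.21. All had a lower Sup signal in OGD/R, with differences of -1.29, -1.12 and -1.08, and their IP differences were 0.16, 0.26 and 0.33. They were picked by these same differences, so their likeness to Tm9sf1 follows from the choice. Rab5a had no such close gene. Among its nearest were Cep41 at 0.69 and Cpt1a, which encodes an enzyme of mitochondrial fatty acid import, at 0.88. Of these Cep41 also had a lower ratio, at -1.10, which is past 2-fold, unlike the -0.92 of Rab5a. Its differences were 1.13 in Sup and 0.09 in IP, the latter opposite in sign to the -0.30 of Rab5a. For Atg3 only IP could be compared, over 39 named gene probes. The nearest IP differences were those of Gsdmd (0.16), Tm9sf1 (0.16) and Prdx2, a peroxiredoxin gene, at 0.24, all well within the Atg3 spot SD.

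The 2 genes measured in both channels kept their opposite directions under all 10 other processings of the ratio, of which the restriction to spots well above background could alter neither. That of Rab5a ranged from -0.59 with normexp to -1.37 when centred on the spike-in probes, and that of Tm9sf1 from 0.81 with normexp and loess to 1.33 with loess alone. Past 2-fold, Rab5a was found only with spike-in centring, and Tm9sf1 fell short with normexp (0.93), with normexp and loess, and with spike-in centring (0.87). Normexp here adds an offset of 50 units to each channel, close to the whole uncorrected Sup brightness of Rab5a in control.

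**Figure D5:**
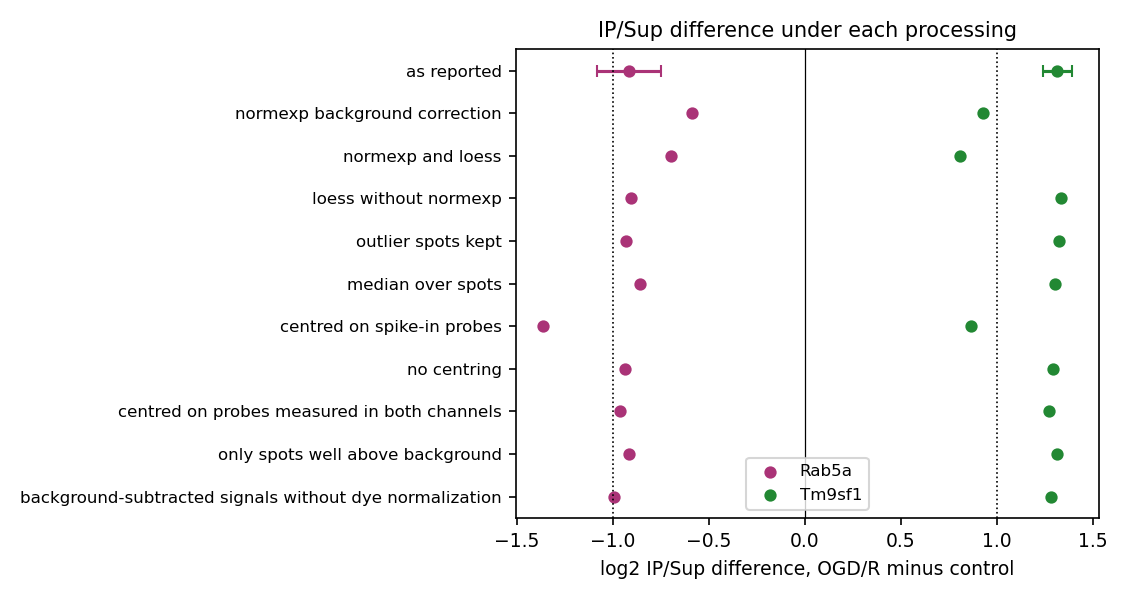
Log2 IP/Sup difference, OGD/R minus control, of Rab5a and Tm9sf1 under each processing, with the spot SD drawn on the value as reported and 2-fold marked by dotted lines. All Rab5a points lie below 0 and all Tm9sf1 points above it, and both move toward 0 with normexp.

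The cell type could be checked against few markers. Of 12 microglial genes listed, Apoe had a probe and was well above background in all retained spots of both channels. Of 4 oligodendrocyte genes, Mbp had a probe, with 0 of 10 Sup spots and 10 of 10 IP spots well above background in either state and median IP signals of 464 and 387. None of the 4 astrocyte and 4 neuron genes listed had a named probe. In these arrays fewer transcripts per cell and a smaller share of cells with the transcript cannot be told apart.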

How the data were processed

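Fluorescence intensity was read from the 2 deposited scanner files, 1 array per state. Agilent Feature Extraction 11.0.1.1 had background-subtracted, detrended and dye-normalized the processed signals within each array, per the file headers, and the arrays were not scaled to each other. The deposited log10 ratio of Cy5 to Cy3 was used for its error only. A deposited table of small-RNA values was not used because it holds no gene probe.

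Spots marked as outliers (57 in control, 83 in OGD/R) were left out, and 0 were saturated. Log2 signals were averaged over spots. Being measured in a channel required that 50% or more of the retained spots be well above background. Log2 IP/Sup was centred on its median over the 7470 RNAs measured in at least 1 channel on both arrays. Single channels were scaled by the 75th percentile, over all RNA probes for Sup and over those measured in IP for IP. Differences are OGD/R minus control, marked at 2-fold. Accessions named 46 of 50 gene probes through a RefSeq table of GRCm38.p6. Alternatives used limma 3.58.1 in R 4.3.3 and Python 3.11.15, and the computation was tested on simulated data. The members and lists were chosen with earlier results of these data known. The genes named beyond the members are the 3 nearest in channel differences, the holders of the next IP shares and the marker genes. A gene among the 3 nearest to Rab5a is not reported here. Dnajc11 and Trp53rka were named after their values were seen. The number of arrays limits the precision.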

Additional observations from a re-analysis of the deposited data

How the results depend on the processing

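The ratio differences of Rab5a and Tm9sf1 kept their sign in the 9 alternatives that altered the value, and 6 of the 9 lay within 1 spot SD of the reported value for each gene. Keeping only spots well above background altered neither, since all their spots were. The Rab5a difference of -0.92 was -0.59 with normexp, -0.70 with normexp and loess, and -1.37 with spike-in centring, where it passed 2-fold. The Tm9sf1 difference of 1.32 was 0.93, 0.81 and 0.87 in the same order and fell short of 2-fold in all 3. Spike-in centring lowers every ratio difference alike, and the median over RNAs measured in both channels was then -0.40, against 0.05 as reported. The spike-in scale shifted the median Sup difference to 0.43. The Rab5a Sup difference was 1.01 on that scale, 0.23 with normexp and 0.28 with normexp and loess. The Tm9sf1 Sup difference was -0.77, -0.84 and -0.79 in the same order, and it stayed past 2-fold in 4 of the 7 alternatives that altered it. The Atg3 IP difference of 0.18 stayed within 1 spot SD in 8 of 8 alternatives, from 0.03 to 0.27. Atg3 has no spot well above background in both channels and thus no total over such spots, so that alternative was not run. The background-subtracted signals without dye normalization, chosen after seeing the data, gave ratio differences of -0.996 for Rab5a and 1.28 for Tm9sf1. No paired analysis was possible because each state has 1 array. Sup signals near background leave Atg3 without a ratio.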
